A study of Mus musculus with 12 samples.

Results

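The data are RNA-seq counts of CD4+ T cells from wild-type C57BL/6 mice on a control diet (replicates 2 and 3) or on an MCD diet (replicates 1 and 3). Members were chosen by cell type, genotype and diet in the labels, which gives 4 of the 12 libraries of the series, 2 on each diet. MCD is the usual short name of a methionine- and choline-deficient diet, which produces fatty liver with inflammation in mice, and the series concerns steatohepatitis. In both groups the mice were 7 weeks old when the diet began and ate it for 6 weeks, and the cells were sorted by flow cytometry into lysis buffer. The other 8 libraries hold CD4+ T cells of γδTCR-/- mice (called knockout here) and wild-type γδ T cells, on the same diets. The labels give no organ of origin, no number of mice per library and no statement that replicates come from different animals, so p-values measure only the spread between these samples.

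CD4+ T cells recognise peptides on MHC class II through an αβ receptor and steer other immune cells through cytokines. Naive cells circulate through lymphoid organs under factors such as Klf2, Satb1 and Tcf7, while effector and memory cells gain adhesion molecules, chemokine receptors and cytokine genes and enter tissues such as the liver. Repeated stimulation induces inhibitory receptors (checkpoints) such as Tigit and Ctla4, and some CD4+ cells of the liver carry receptors otherwise typical of natural killer (NK) cells. The MCD diet withholds methionine, the precursor of the methyl donor S-adenosylmethionine, and choline, a building block of membrane lipid.

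Cd4, the co-receptor that defines these cells, read 632 and 750 CPM (counts relative to library size, scaled by TMM) in control replicates 2 and 3 and 880 and 764 CPM in MCD replicates 1 and 3. Cd3e read 746 and 741 CPM on control and 638 and 621 CPM on MCD, and Trac, the α-chain constant gene, read 444 and 434 against 344 and 338 CPM. Cd8a, the co-receptor of the other αβ lineage, stayed between 3.18 and 11.2 CPM. All 3 defining markers were thus abundant in each library. Totals were 17035638 to 18410553 counts, of which mitochondrial genes took 40.8% to 43.9%, and 13024 to 13402 genes had at least 10 counts. Pearson's r of log2 CPM was 0.902 between the control libraries and 0.895 between the MCD libraries, across genes, so without independent points.

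No gene separated the diets at the threshold used. In edgeR's quasi-likelihood test 0 of 16218 genes (0%) passed an adjusted p of 0.05, and each gene's adjusted p was 1. An unadjusted p under 0.05 was reached by 346 genes, fewer than 811, which is 5% of those tested. In that fit all 12 libraries share the estimate of the spread, among them the γδ T cell MCD libraries, whose Pearson's r was 0.747. The count was 703 when edgeR used the 8 CD4+ libraries only and 899 when it used the 4 wild-type CD4+ libraries only. Of the 346 genes, 153 (0.943%) read higher and 193 (1.19%) lower on MCD. The balance turned without MCD replicate 1 (132 higher, 99 lower) and without MCD replicate 3 (110 higher, 72 lower). DESeq2 called 40 genes and limma-voom 0. Of the 40, 24 had no overlap between diets, and some rested on 1 count in 1 library, such as Vegfa. The values below therefore describe these 4 libraries, and no gene is said to have changed with the diet.

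As a description, 685 genes (4.22%) were at least 2-fold higher on MCD and 627 (3.87%) at least 2-fold lower, with both libraries of one diet beyond both of the other and the higher diet averaging 5 CPM or more. Without the conditions on fold and level, 2709 genes (16.7%) lay wholly higher and 2795 (17.2%) wholly lower. The median log2 fold change over all tested genes was 0, with 49.7% above 0. Large differences sat mostly in scarce transcripts: of 2232 genes averaging 50 CPM or more over the 4 libraries, 15 were at least 2-fold higher and 17 at least 2-fold lower without overlap.

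**Figure D1:**
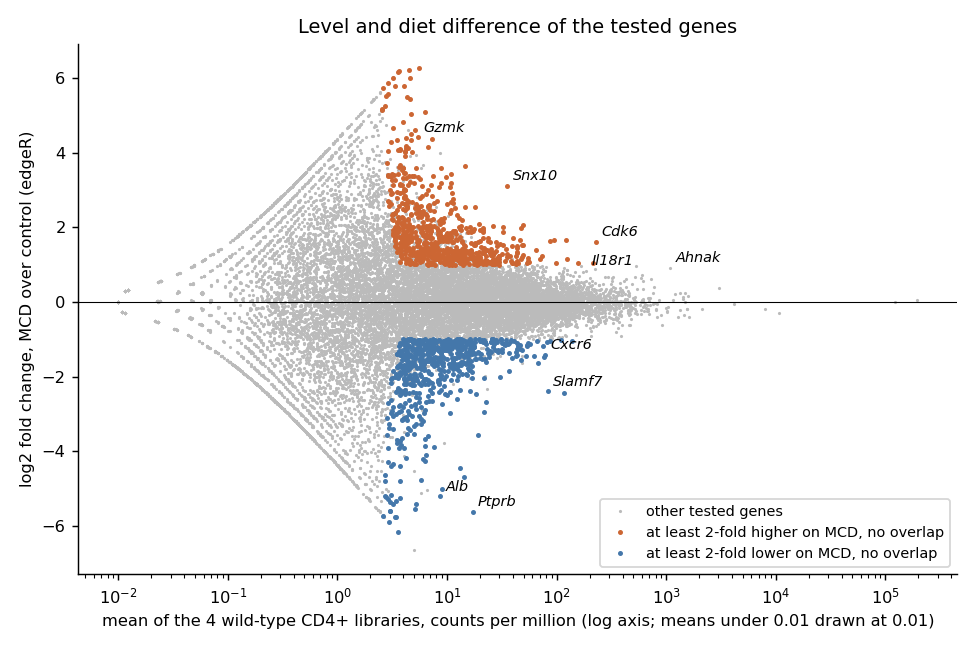
Each point is 1 of the 16218 tested genes; the x axis gives its mean over the 4 wild-type CD4+ libraries in CPM on a log axis, and the y axis the log2 fold change of MCD over control. The 685 orange and 627 blue genes were at least 2-fold apart without overlap, and Slamf7, Cxcr6, Cdk6 and Ahnak stand out among the abundant genes.

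Slamf7 had the smallest p of any gene (8.86e-05). It encodes an activating receptor of the SLAM family on NK cells and activated lymphocytes, and lies at chr1:171632403-171653035 on the minus strand (GRCm38). Its level was 124 and 156 CPM in control replicates 2 and 3 and 21.4 and 31.6 CPM in MCD replicates 1 and 3, so both MCD libraries lay far under both controls. The log2 fold change was -2.40 ± 0.44 (SE). DESeq2 gave it an adjusted p of 0.00151.

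Cxcr6, a chemokine receptor of T cells that lodge in the liver (chr9:123806475-123811760, plus strand), read 118 and 109 CPM on control and 48.7 and 36.4 CPM on MCD. These groups did not overlap, with a log2 fold change of -1.41 ± 0.46 (SE) and an unadjusted p of 0.00876. Cd160, a receptor found on NK cells and some T cells, read 43.1 and 25.9 CPM on control and 13.8 and 8.68 CPM on MCD, again without overlap. Other abundant genes at least 2-fold lower were Calr, which encodes the chaperone calreticulin (121 and 103 against 52.2 and 28.2 CPM), and Cnot7, a subunit of the CCR4-NOT deadenylase (77.4 and 75.8 against 25.5 and 30.8 CPM). Selenop, which encodes the plasma selenium carrier, read 117 and 162 CPM on control and 73.3 and 70.9 CPM on MCD.

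Higher on MCD with the smallest p was Cdk6 (0.00026), a kinase of the G1 phase partnered by D-type cyclins, at chr5:3341485-3531008 on the plus strand. It read 280 and 413 CPM in MCD replicates 1 and 3 and 103 and 124 CPM in the controls, with a log2 fold change of 1.61 ± 0.33 (SE). DESeq2 gave an adjusted p of 0.0173. Both MCD libraries were above both controls.

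Ahnak, a very large scaffold protein used as a marker of antigen-experienced T cells, read 1486 and 1354 CPM on MCD and 823 and 684 CPM on control. Snx10, a sorting nexin of endosomes, read 66.8 and 60.4 CPM against 9.43 and 5.07 CPM, a log2 fold change of 3.11 ± 0.79 (SE). The diets overlapped for neither gene, and Snx10 was among the 40 genes of DESeq2 (adjusted p = 0.00633) while Ahnak was not. Runx2, a transcription factor of the Runt family, read 47.6 and 93.4 CPM on MCD and 17.1 and 27.1 CPM on control. Gprin3 (97.7 and 110 against 39.5 and 48.7 CPM) and Neb (170 and 118 against 43.4 and 47.0 CPM) were further abundant genes at least 2-fold higher. Neb and Ttn encode giant muscle proteins, and Ttn read 95.3 and 171 CPM on MCD and 55.1 and 30.7 CPM on control. Some genes with small p-values rested mainly on 1 library: Dkk3, a secreted glycoprotein, had 1 count in MCD replicate 1 and 249 in MCD replicate 3, and 0 in both controls (at least 43.1-fold higher, with the controls set at 3 counts per library). Rnd3 had 34 and 360 counts on MCD and 1 in each control, a ratio of 210 (95% counting interval 57.8 to 1741, for counting error only).

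**Figure D2:**
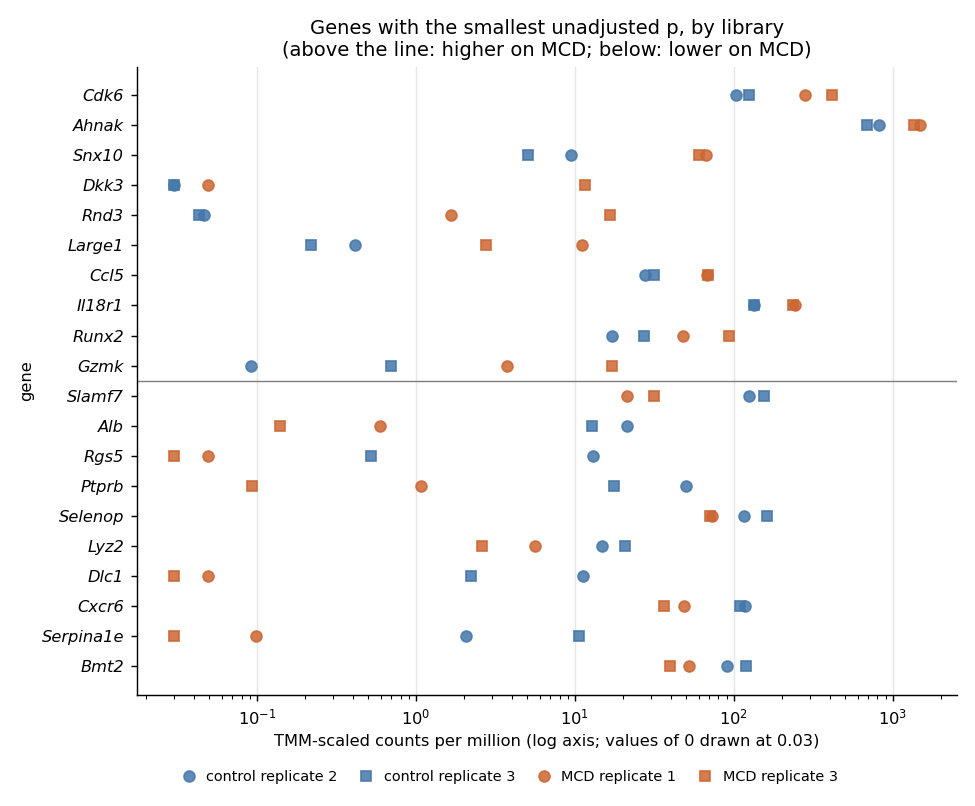
CPM on a log axis for the 10 genes higher (above the line) and 10 lower (below it) on MCD with the smallest unadjusted p among non-overlapping genes that averaged 5 CPM or more on the higher diet; circles and squares are the libraries of each diet. Slamf7, Cdk6, Ahnak, Il18r1 and Ccl5 have tight pairs, whereas Dkk3 reads 0.0492 and 11.5 CPM in the MCD libraries.

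The 250 bases before the RefSeq start of Slamf7, Cxcr6 and Cdk6 are shown because these 3 abundant genes are described above with their levels in each library, with matches to 5 short motifs in capitals. The coordinates are those of GRCm38.p6: chr1:171649000-171649249 on the minus strand for Slamf7, chr9:123806227-123806476 on the plus strand for Cxcr6 and chr5:3343643-3343892 on the plus strand for Cdk6. The Slamf7 and Cdk6 windows lie inside the longer GENCODE genes given above.
Slamf7: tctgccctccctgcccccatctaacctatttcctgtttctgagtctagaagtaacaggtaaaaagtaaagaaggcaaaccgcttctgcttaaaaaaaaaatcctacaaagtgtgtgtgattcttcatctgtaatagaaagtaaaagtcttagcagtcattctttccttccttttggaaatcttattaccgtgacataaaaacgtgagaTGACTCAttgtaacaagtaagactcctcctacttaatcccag
Cxcr6: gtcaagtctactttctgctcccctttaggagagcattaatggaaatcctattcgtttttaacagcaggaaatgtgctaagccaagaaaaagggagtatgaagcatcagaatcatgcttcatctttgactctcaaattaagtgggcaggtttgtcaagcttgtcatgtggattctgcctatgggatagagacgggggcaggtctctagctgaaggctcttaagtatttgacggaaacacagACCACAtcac
Cdk6: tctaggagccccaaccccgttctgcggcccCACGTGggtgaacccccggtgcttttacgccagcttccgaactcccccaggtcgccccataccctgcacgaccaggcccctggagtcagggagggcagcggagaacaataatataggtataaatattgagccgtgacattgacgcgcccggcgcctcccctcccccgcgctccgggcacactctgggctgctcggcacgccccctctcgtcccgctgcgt
The motifs, searched on both strands, were TGANTCA (AP-1), TGTGGT (RUNX), CACGTG (E-box), TCACACCT (T-box) and GCGTGGGCG (EGR). Slamf7 held an AP-1 match that began 42 bases before the start, Cxcr6 a RUNX match on the opposite strand at 10 bases, and Cdk6 an E-box at 220 bases, with no overlap between matches.

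Across all tested genes with a RefSeq promoter (10157 genes, windows of 250 bases before and 50 after each start), the AP-1 letters were in 6.23%, against 7.28% of the 426 genes at least 2-fold higher and 6.21% of the 451 at least 2-fold lower. The RUNX letters were in 16% of all genes, 17.8% of those higher and 14.9% of those lower, and the E-box in 11.3%, 12% and 11.3%. EGR letters were in 1.41%, 0.469% and 1.33%, and T-box letters in 1.09%, 1.17% and 1.33%. The EGR share of the higher genes is 2 genes of 426. The other shares of the genes apart lay near those of all genes, and a match is only a match of letters.

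Genes of effector memory and tissue residency leaned higher on MCD: 15 of 23 members read higher, 8 of them without overlap, and 8 lower, 3 of them without overlap, with a median log2 fold change of 0.21 beside 0 over all genes, or 0.31 without MCD replicate 1 and 0.14 without MCD replicate 3. Counts without overlap, here and in the lists below, stand beside 16.7% of all genes wholly higher and 17.2% wholly lower. Vim, an intermediate filament of activated and memory T cells, read 148 and 194 CPM on MCD and 71.9 and 83.4 CPM on control. Itga4, the α4 integrin that lets T cells adhere to inflamed endothelium, read 893 and 859 against 525 and 624 CPM, and the memory marker Cd44 read 244 and 236 against 191 and 163 CPM. None of these overlapped. Members that went the other way included Cxcr6, Zfp683, a residency factor, and S100a10. Cxcr6 (118 and 109 CPM on control, 48.7 and 36.4 on MCD) was the only member of this list at least 2-fold lower without overlap. Zfp683 read 45.4 and 62.3 CPM on control and 35.4 and 42.7 CPM on MCD. In these bulk samples, a different share of cells that carry a transcript and a different amount per cell cannot be told apart.

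Of the genes of naive and central memory cells 12 of 18 were lower, 7 without overlap, with a median of -0.18, or -0.12 without control replicate 2 and -0.06 without MCD replicate 3. Satb1, a chromatin organiser of naive T cells, read 1073 and 1130 CPM on control and 789 and 646 CPM on MCD. Foxo1 (413 and 385 against 252 and 332 CPM), Foxp1 (262 and 297 against 228 and 169 CPM) and Bach2 (183 and 183 against 117 and 152 CPM), transcription factors that keep T cells quiescent, were also lower without overlap. Other members did not follow. Il7r, the interleukin-7 receptor, read 959 and 552 CPM on MCD and 413 and 508 CPM on control, and Klf2, which maintains trafficking receptors, read 60.7 and 89.6 against 34.8 and 35.3 CPM. Tcf7 (496 and 404 CPM on MCD, 484 and 414 CPM on control) overlapped.

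Checkpoint genes leaned higher: 11 of 12 tested members read higher on MCD, 7 without overlap, with a median of 0.69. Tigit, an inhibitory receptor for poliovirus-receptor family ligands, read 52.5 and 99.6 CPM on MCD and 22.3 and 16.4 CPM on control. Ctla4 read 149 and 154 CPM against 60.3 and 100 CPM, and Havcr2 (TIM-3) 12.8 and 27.3 against 9.94 and 5.38 CPM. These 3 had no overlap, whereas Pdcd1 (PD-1) did, at 2.02 and 15.4 CPM on MCD against 2.62 and 0.390 CPM. Lag3 was scarce in each library (1.03 and 3.33 CPM against 0.0460 and 0.0867 CPM), and Cd160 was the member that read lower. 1 member of the list reached an unadjusted p under 0.05, and that was Cd160 (0.037).

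Several checkpoint genes also mark regulatory T cells, whose list was higher in 12 of 18 members (6 without overlap, median 0.44, or 0.26 without MCD replicate 3). Foxp3, the lineage factor, read 53.03 and 61.7 CPM on MCD and 43.0 and 36.3 CPM on control. Il2ra, the interleukin-2 receptor α chain, went the other way (82.9 and 55.9 against 114 and 83.6 CPM). Neither overlapped, and Il10 was higher at low levels (2.61 and 6.42 against 1.47 and 0.434 CPM). In the follicular helper list 9 of 11 tested members were higher (median 0.47), 4 without overlap, among them Tox (78.3 and 117 against 71.1 and 69.3 CPM) and Slamf6 (226 and 197 against 150 and 182 CPM), while Icos (110 and 131 against 135 and 190 CPM) was lower. The follicular helper median was -0.20 without MCD replicate 1.

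**Figure D3:**
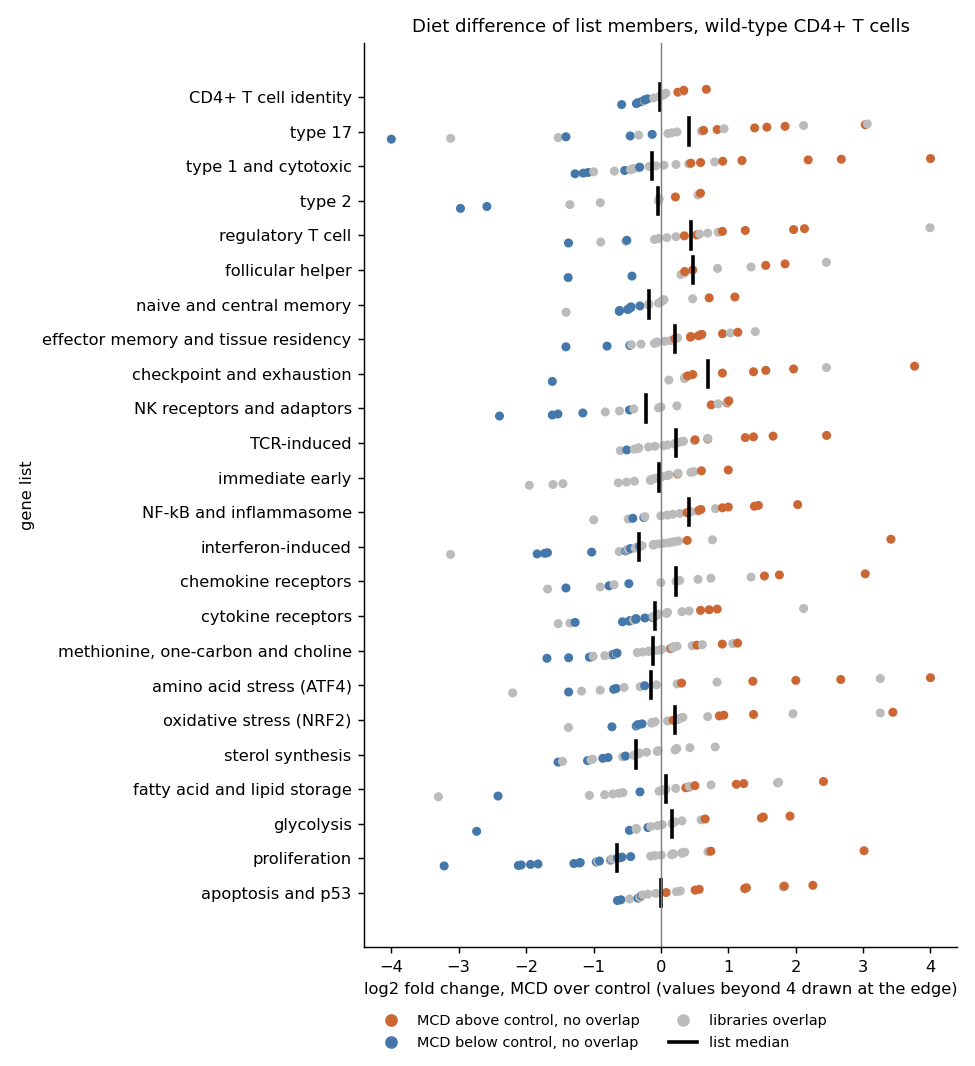
Each point is a tested member of a gene list, placed by its log2 fold change of MCD over control (values beyond 4 at the edge); orange and blue points had no overlap between diets and the black bar is the list's median. The checkpoint list has 11 of 12 members above 0, and the proliferation list 22 of 32 below 0.

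Of the type 17 list 13 of 20 tested members were higher (median 0.42), but its defining cytokine Il17a had 0 counts in 3 libraries and 0.185 CPM in MCD replicate 3. Among the higher members were Il18r1, a receptor chain for interleukin-18 (242 and 237 CPM on MCD, 135 and 134 CPM on control), Tmem176a (28.4 and 25.5 against 8.70 and 9.28 CPM) and Ccr6, a chemokine receptor (4.92 and 2.17 against 0.690 and 0 CPM). Il18r1 had an unadjusted p of 0.00439 and no overlap, while its partner chain Il18rap read 75.5 and 80.7 CPM on MCD and 86.6 and 84.3 CPM on control. Ramp1, a co-receptor for the neuropeptide CGRP, was lower (8.01 and 47.3 CPM on control, 1.97 and 0 CPM on MCD). The list median was -0.11 without MCD replicate 3.

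Type 1 and cytotoxic genes split, with 11 of 24 members higher and 13 lower and a median of -0.13, which was 0.09 without control replicate 3. Ccl5, a chemokine made by effector T cells (chr11:83525778-83530518, minus strand), read 67.3 and 68.7 CPM on MCD and 27.6 and 31.4 CPM on control, with a log2 fold change of 1.20 ± 0.33 (SE). Gzmk, a granzyme of memory cells, read 3.74 and 17.1 CPM on MCD and 0.0920 and 0.694 CPM on control, and Eomes, a T-box factor, 7.13 and 8.41 against 0 and 2.26 CPM. These 3 had no overlap and were higher. Lower without overlap were Gzmb, the granzyme of acute cytotoxic cells (85.1 and 43.4 CPM on control, 37.8 and 19.95 on MCD), Il12rb2, the inducible interleukin-12 receptor chain (50.8 and 71.5 against 24.1 and 26.3 CPM), and Tbx21, the type 1 lineage factor (26.6 and 32.4 against 26.0 and 14.6 CPM). Ifng overlapped, at 21.8 and 32.4 CPM on MCD and 55.2 and 18.0 CPM on control.

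Chemokine receptors, which steer T cells between blood and tissue, were split (8 of 15 tested members higher, 6 lower, median 0.22, or -0.06 and -0.02 without MCD replicates 1 and 3). Beside Cxcr6 and Ccr6, Cxcr4, the receptor for CXCL12, was apart at 98.5 and 47.0 CPM on MCD and 29.4 and 20.6 CPM on control. Ccr2, a receptor for inflammatory monocyte chemokines, was lower without overlap (85.9 and 117 CPM on control, 72.6 and 46.1 CPM on MCD). In the type 2 list 3 of 9 tested members were higher and 6 lower (median -0.04). That median was -0.97 without MCD replicate 3, 0.20 without MCD replicate 1 and 0.43 without control replicate 3. The type 2 lineage factor Gata3 read 61.0 and 63.1 CPM on MCD and 56.1 and 50.8 CPM on control. Cytokine receptors were lower in 16 of 25 members, 8 without overlap (median -0.09, or 0.12 without control replicate 3 and -0.31 without MCD replicate 1).

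NK receptors and adaptors were lower in 9 of 16 members and higher in 6. Their median was -0.22, or 0.04 without control replicate 3 and -0.94 without MCD replicate 1. Their summed level was 341 and 431 CPM on control and 239 and 152 CPM on MCD. Beside Slamf7 and Cd160, the members lower without overlap were Klrb1c, which encodes NK1.1 (61.7 and 64.8 against 57.1 and 34.5 CPM), Klre1 and Hcst, the adaptor DAP10 (18.5 and 8.46 against 6.98 and 4.99 CPM). Without overlap 5 of the 16 were thus lower and 3 higher, beside 17.2% and 16.7% of all genes. Among the higher was Klri2 (6.14 and 12.5 CPM on MCD, 5.52 and 3.64 CPM on control). Klrk1 (NKG2D) and Klrd1 overlapped, and Ncr1, the receptor that defines NK cells, had 0 counts in each of the 4 libraries. Some genes known from innate-like T cells were looked up after the Slamf7 and Cxcr6 values had been seen. Zbtb16, the factor PLZF, read 36.1 and 35.0 CPM on control and 18.5 and 9.88 CPM on MCD, Il4 9.11 and 9.93 against 0.885 and 2.12 CPM, and the γ-chain constant gene Tcrg-C1 62.1 and 78.8 against 35.5 and 12.4 CPM, all without overlap. The segment Traj18, used by invariant NKT cells, read 9.11 and 4.51 CPM on control and 7.67 and 6.74 CPM on MCD, and Trbv13-2 read 22.4 and 19.7 CPM on control and 30.4 and 3.97 CPM on MCD, so both overlapped. The part of such cells in the Slamf7 and Cxcr6 differences was not tested.

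Genes induced by T cell receptor signals were higher on MCD in 15 of 22 members, 6 without overlap, beside 16.7% of all genes wholly higher. The median was 0.23, or 0.71 without control replicate 2 and 0.14 without MCD replicate 3. Egr1, a zinc-finger factor of the early response, read 158 and 214 CPM on MCD and 88.5 and 28.6 CPM on control. Egr2 (16.2 and 20.4 against 5.02 and 1.47 CPM) and Nr4a1 (26.0 and 20.1 against 10.8 and 6.89 CPM), a further pair of receptor-induced factors, were higher too. Immediate early genes, which also respond to cell handling, had a median of -0.03, and control replicate 2 stood apart from control replicate 3: Fosb read 143 and 12.1 CPM in them and 64.6 and 75.0 CPM in the MCD libraries, and Hspa1a, a heat-shock gene, 80.0 and 8.89 against 16.3 and 15.98 CPM. The immediate early median was 0.60 without control replicate 2, -0.29 without control replicate 3 and 0.11 without MCD replicate 1. The part of this spread in the Egr1 and Nr4a1 values was not tested.

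In the NF-kB and inflammasome list 14 of 20 members were higher and 5 lower (median 0.42, or 0.08 without MCD replicate 3). Casp4, the intracellular sensor of lipopolysaccharide, read 38.9 and 46.6 CPM on MCD and 14.5 and 6.33 CPM on control. Nfkbia, the inhibitor IκBα, read 36.5 and 42.7 against 18.6 and 20.9 CPM, and Rela 32.5 and 31.5 against 24.1 and 9.84 CPM, all without overlap. Interferon-induced genes leaned lower, in 19 of 27 members (8 without overlap, median -0.33, or -0.09 without control replicate 2 and -0.51 without MCD replicate 3), among them Igtp (160 and 115 CPM on control, 96.6 and 105 CPM on MCD) and Oas2 (24.9 and 9.28 against 7.03 and 3.46 CPM). Of the 8 higher members 2 did not overlap, and 1 of these was Isg20, an exonuclease, at 16.6 and 23.3 CPM on MCD and 1.61 and 1.95 CPM on control.

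Genes of methionine, one-carbon and choline metabolism, the pathways that the diet deprives, showed no lean: 13 of 30 tested members were higher and 17 lower, 0 reached an unadjusted p under 0.05 in edgeR and the median was -0.12, or -0.01 without control replicate 2 and -0.24 without MCD replicate 3. Mat2a, which makes S-adenosylmethionine outside the liver, read 218 and 170 CPM on MCD and 187 and 154 CPM on control, with overlap. Slc44a2, a choline transporter, also overlapped (210 and 244 against 283 and 230 CPM). Without overlap 7 of the 30 were lower and 4 higher, beside 17.2% and 16.7% of all genes. Of 7 members lower without overlap, 3 were Slc3a2 (36.3 and 29.4 against 68.3 and 38.6 CPM) and Slc7a5 (9.58 and 4.53 against 15.9 and 20.9 CPM), which together form an importer of large neutral amino acids, and Mtap, of the methionine salvage route (22.9 and 24.1 against 33.9 and 39.9 CPM). Of 4 members higher without overlap, 3 were Mthfd1l, a mitochondrial folate enzyme (29.3 and 28.7 CPM on MCD, 14.2 and 16.6 CPM on control), the spermine synthase gene Sms (30.5 and 23.9 against 17.4 and 20.1 CPM) and Ahcyl1 (96.1 and 104 against 87.2 and 93.1 CPM).

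The ATF4 list of amino acid stress was mixed, with 8 of 18 tested members higher and 10 lower (median -0.15, or 0.29 without control replicate 2). Ddit4, an inhibitor of mTORC1 signalling, read 66.0 and 37.8 CPM on MCD and 14.3 and 11.5 CPM on control, and Aars, alanyl-tRNA synthetase, 36.4 and 33.3 against 14.5 and 12.4 CPM. Asns, asparagine synthetase, read 3.39 and 6.604 CPM on MCD against 2 counts in control replicate 2 and 0 in control replicate 3, and Atf4 itself overlapped (59.0 and 32.7 against 61.3 and 52.3 CPM). The first 3 of these had no overlap and unadjusted p-values of 0.0491, 0.159 and 0.0315. Over the list 5 members were higher and 4 lower without overlap, beside 16.7% and 17.2% of all genes. Among the lower were Slc38a2 (358 and 174 CPM on control, 169 and 166 CPM on MCD) and Slc7a5 (15.9 and 20.9 against 9.58 and 4.53 CPM). Of the oxidative stress list 13 of 22 members were higher (median 0.22, or -0.02 without MCD replicate 1), with Gclm, a subunit of the glutathione synthesis enzyme, at 15.8 and 22.1 against 9.99 and 4.51 CPM, and Hmox1 at or under 2.16 CPM in each library.

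Sterol synthesis leaned lower, in 16 of 21 members with 5 without overlap (median -0.38, or -0.15 without control replicate 2 and -0.64 without control replicate 3). Those 5 of 21 are not far from the 17.2% of all genes that lay wholly lower. Fdft1, squalene synthase, read 15.9 and 9.93 CPM on control and 4.72 and 4.11 CPM on MCD. Fatty acid and lipid storage genes had a median of 0.07 and glycolysis genes one of 0.17. Without MCD replicate 3 these were -0.09 and -0.23, and without control replicate 3 they were 0.30 and -0.07. The glycolysis median was 0.29 without MCD replicate 1. In these lists Acadm, a mitochondrial β-oxidation enzyme (26.7 and 19.8 CPM on MCD, 7.27 and 12.4 CPM on control), and Pfkl, a phosphofructokinase (22.4 and 20.1 against 4.37 and 10.3 CPM), were at least 2-fold higher without overlap.

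Proliferation genes were lower in 22 of 32 members, 15 of them without overlap, with a median of -0.65, or -0.37 without control replicate 3. Mki67, the Ki-67 antigen of cycling cells, read 153 and 208 CPM on control and 105 and 137 CPM on MCD. Top2a, the topoisomerase of dividing cells, read 80.3 and 101 against 54.9 and 38.4 CPM, and Rrm2, a subunit of ribonucleotide reductase, 22.5 and 27.7 against 8.55 and 5.50 CPM. Ccnb2, a mitotic cyclin (12.7 and 6.94 against 0.590 and 3.79 CPM), and Cenpe, a kinetochore motor (25.1 and 48.7 against 10.5 and 21.3 CPM), were lower too, whereas the mitotic kinase Plk1 was higher (1.82 and 12.6 CPM on MCD against 0.0460 and 1.56 CPM). None of the 32 had an unadjusted p under 0.05 in edgeR, although the summed level (765 and 801 CPM on control, 519 and 597 CPM on MCD) did not overlap. Among apoptosis genes (10 higher, 10 lower) Bcl2, the survival protein, read 808 and 666 CPM on MCD and 533 and 461 CPM on control.

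Markers of other cells differed between the diets as well, mostly at low levels. Of 15 tested hepatocyte markers 11 were lower on MCD and 4 higher (median -1.65, which becomes -0.63 once a diet at 0 counts is given the floor of 3 counts per library; the first is -0.93 without control replicate 3). Alb, albumin, read 21.3 and 12.9 CPM on control and 0.590 and 0.139 CPM on MCD, and Fga, a fibrinogen chain, was at 0 in both MCD libraries and 2.53 and 1.08 CPM in the controls. The summed level of the hepatocyte list was 105 and 61.1 CPM on control and 44.4 and 68.3 CPM on MCD, and it overlapped because Ass1, a urea-cycle enzyme that other cells make too, supplied 33.5 to 63.2 CPM. On MCD 12 of the 22 hepatocyte markers were at 0 in both libraries, and on control 2 were.

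Sinusoidal endothelial markers were lower in 12 of 16 tested genes, 11 without overlap (median -2.53, or -1.61 without control replicate 3). Ptprb, an endothelial phosphatase, read 49.9 and 17.5 CPM on control and 1.08 and 0.0924 CPM on MCD, and Mrc1, the mannose receptor, 8.05 and 20.5 against 0 and 1.76 CPM. Their sum, 182 and 152 CPM on control and 139 and 124 CPM on MCD, held Pecam1, which T cells also carry and which was higher on MCD (113 and 108 against 86.5 and 65.2 CPM). The macrophage and Kupffer cell list was lower in 14 of 17 tested genes (sum 87.1 and 53.5 against 24.8 and 40.2 CPM). Only 3 were lower without overlap, beside 17.2% of all genes. The list's median was -0.52, or -0.165 without control replicate 2 and -1.54 without MCD replicate 3. Lyz2, lysozyme, read 14.8 and 20.6 CPM on control and 5.60 and 2.59 CPM on MCD. Vsig4, a Kupffer cell receptor, read 4.69 and 5.03 CPM on control and 0 on MCD. Other members overlapped, such as C1qc (15.4 and 2.65 against 1.28 and 4.34 CPM).

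Stellate cell and fibroblast markers summed to 15.9 and 11.4 CPM on control and 0.491 and 0.139 CPM on MCD, through Rgs5 in control replicate 2 (13.0 CPM) and Lrat in control replicate 3 (9.45 CPM). Of 14 tested B and plasma cell markers 4 were higher on MCD and 10 lower. Igkc, the immunoglobulin κ constant gene, read 40.5 and 36.5 CPM on control and 1.62 and 8.22 CPM on MCD. The more abundant Ighm overlapped, at 242 and 310 CPM on control and 297 and 204 CPM on MCD. The B cell marker Ms4a1 stayed at or under 1.57 CPM. The neutrophil markers S100a8 and S100a9 had 0 counts in each library, and erythroid and platelet genes summed to at most 6.12 CPM. Over the whole neutrophil and monocyte list, which holds S100a8, S100a9 and Csf3r, the sum was 169 and 198 CPM on control and 102 and 90.5 CPM on MCD. Ccr2 (85.9 and 117 against 72.6 and 46.1 CPM) and Mmp9 (67.0 and 49.2 against 15.6 and 25.7 CPM) supplied most of that sum. Of its 10 tested members 3 were higher and 5 lower. Over the list of CD8, NK and γδ T cell genes the sum was 165 and 191 against 136 and 76.8 CPM, mostly from Klrb1c, Tcrg-C1 and Zbtb16. Of the 10 tested members of that list 5 were higher and 4 lower. Cd8a (3.18 and 5.42 CPM on control, 6.39 and 11.2 CPM on MCD) and Eomes were higher without overlap. Dendritic cell genes summed to 122 and 112 CPM on control and 84.6 and 111 CPM on MCD. The markers of other cells that read lower on MCD stand beside the T cell genes above, and their part in those values was not tested.

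**Figure D4:**
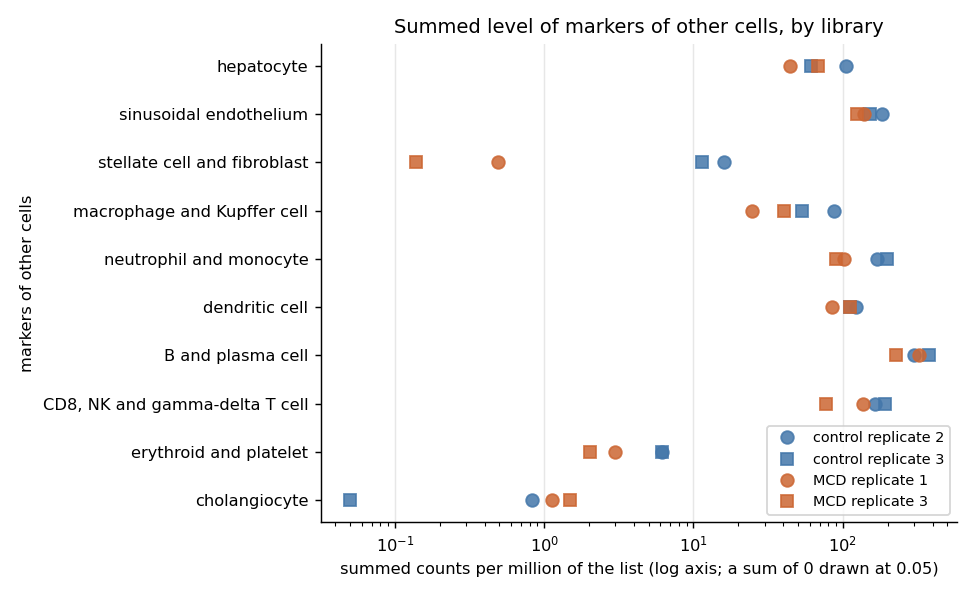
Summed CPM of each list of other-cell markers on a log axis, with circles and squares for the libraries of each diet; a sum of 0 is drawn at 0.05. The stellate cell list shows the widest gap (15.9 and 11.4 CPM on control against 0.491 and 0.139 CPM), and the hepatocyte and B cell sums overlap between diets.

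To ask whether the diet difference of wild-type cells departed from that of knockout CD4+ T cells, the difference of differences was fitted over the same 12 libraries. In edgeR 0 of 16218 genes (0%) passed (lowest adjusted p 0.299), with 703 genes at an unadjusted p under 0.05, 240 with the wild-type value larger and 463 with it smaller; DESeq2 called 71 and limma-voom 1. The mitochondrial share of counts was 52.7% and 51.1% in knockout cells on control, 43.9% and 41.1% in knockout cells on MCD and 40.8% to 43.9% in wild-type cells, and its part was not tested.

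Slamf7 had one of the smallest p-values of this test (7.67e-05, a difference of -3.35 ± 0.60 (SE) on the log2 scale). In knockout cells it read 61.9 and 56.9 CPM on MCD and 17.2 and 43.7 CPM on control, so the order of the diets was opposite and the wild-type controls, at 124 and 156 CPM, held the highest levels. Cxcr6 in knockout cells read 66.7 and 39.4 CPM on MCD and 41.4 and 17.8 CPM on control (unadjusted p of the difference 0.00389). For both genes the difference between genotypes thus includes a higher control level in wild-type cells.

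Other genes lay farther apart between the diets in knockout cells. Rgs1, a regulator of chemokine signalling, read 186 and 257 CPM on MCD and 145 and 155 CPM on control in wild-type cells, and 486 and 486 against 76.9 and 70.5 CPM in knockout cells (unadjusted p of the difference 0.000111). Itga1, an integrin chain of tissue-resident cells, read 76.8 and 71.7 against 130 and 71.9 CPM in wild-type and 59.9 and 60.5 against 5.80 and 14.0 CPM in knockout cells, and Maf, a transcription factor of helper cells, 101 and 141 against 77.8 and 78.2 and 261 and 270 against 43.9 and 36.7 CPM. The unadjusted p-values of the difference were 0.00041 for Itga1 and 0.000505 for Maf. Thy1, a surface glycoprotein of T cells, read 249 and 206 CPM on control and 353 and 373 CPM on MCD in wild-type cells, and 682 and 405 against 257 and 150 CPM in knockout cells (0.000672). By contrast Cdk6 (323 and 399 against 124 and 206 CPM in knockout cells), Ahnak (1247 and 1496 against 468 and 567 CPM) and Il18r1 (261 and 241 against 128 and 162 CPM) were higher on MCD without overlap in knockout cells too. The unadjusted p-values of the difference were 0.308, 0.117 and 0.906, which does not show that the genotypes respond alike; for Il18r1 the estimate was 0.04 ± 0.34 (SE).

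**Figure D5:**
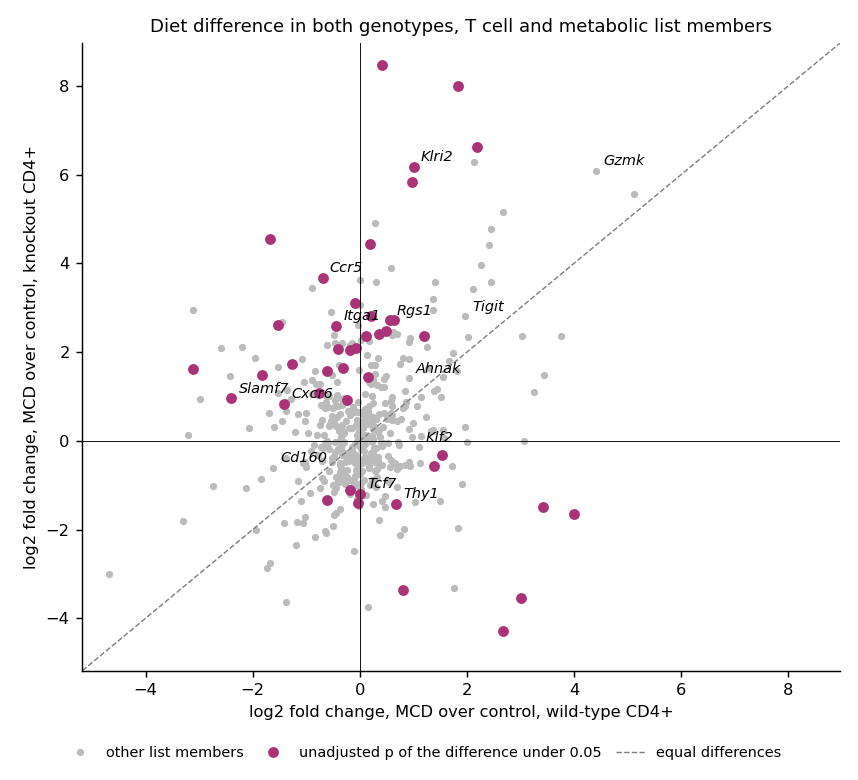
Log2 fold change of MCD over control in wild-type (x axis) and knockout (y axis) CD4+ T cells for 438 members of the T cell and metabolic lists; purple points are the 43 with an unadjusted p of the difference under 0.05 and the dashed line marks equal values. Slamf7 and Cxcr6 lie left of 0 and above the line, and Thy1 right of 0 and below it.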

How the data were processed

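The authors sorted CD4+ and γδ T cells by flow cytometry into lysis buffer and sequenced the RNA, per the labels' protocols. Per the submitters' processing notes, bcl2fastq, STAR, featureCounts and DESeq2 were used with the mm10 (GRCm38) build; versions are not given in the sources used here. The authors deposited raw counts per gene and FPKM values for 12 libraries, whose labels give 6 groups of 2. The counts were the main data. The deposited FPKM values served only as an alternative, on a log2 scale with pseudocounts of 1 and 0.1.

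Of 52459 genes, edgeR's filterByExpr (minimum count 10, minimum total 15) kept 16218. The 2-sided quasi-likelihood test of edgeR 4.0.16 (R 4.3.3) was fitted on all 12 libraries, each group having its own coefficient, after TMM scaling. Adjusted p-values are Benjamini-Hochberg, with a threshold of 0.05. The contrasts were MCD minus control in wild-type CD4+ T cells, and that minus the same in knockout CD4+ T cells. The prior count for log2 fold changes was 2. An exact permutation test of 2 against 2 cannot go below 0.333, so none is quoted. A floor of 3 counts was 0.13 to 0.147 CPM in the wild-type CD4+ libraries. Alternatives were RLE and library-size scaling, no mitochondrial genes, DESeq2 1.42.0, limma-voom (limma 3.58.1), FPKM, other filters, fewer libraries, a replicate block, and each library left out. The script was tested on simulated data.

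Genes were named by these rules. The first took the 10 smallest p-values per direction with at least 5 CPM in the higher group and no overlap. The second took the 10 largest log2 fold changes per direction at a mean of at least 50 CPM without overlap, and the third DESeq2 calls without overlap. From each list came the 3 most abundant members and those at least 2-fold apart; further members are named as examples, chosen after their values were seen, as were Traj18 and Trbv13-2. The members and lists were chosen with earlier results of these data known. Gene positions are from GENCODE vM21 and promoters from RefSeq (GRCm38.p6). Values of some list members are not reported here.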

Additional observations from a re-analysis of the deposited data

How the results depend on the processing

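No paired analysis was possible for the wild-type diets because their libraries share a single replicate number. A replicate block was fitted among knockout CD4+ libraries, with 289 genes at an unadjusted p under 0.05 in wild-type cells and 1 past adjustment for the difference from knockout. The correlation across genes of same-numbered knockout deviations was -0.000833. From 2 knockout libraries per diet it cannot show whether same-numbered libraries share more than a number, and the labels do not say. Genes past adjusted p numbered 40 with DESeq2, 19 without a filter and 0 to 1 with a library left out, the 1 being Slamf7 without either γδ MCD library. The 346 genes at an unadjusted p became 562 (DESeq2), 598 (limma-voom), 618 and 548 (FPKM, pseudocounts 1 and 0.1), 561 (no filter), 208 (mean of at least 50 counts), 703 (CD4+ libraries only) and 899 (the 4 wild-type CD4+ libraries only). With a library left out they ranged from 182 to 675: 213 without control replicate 2, 182 without MCD replicate 3, 668 and 675 without γδ MCD replicates 2 and 4. The 1312 genes at least 2-fold apart became 2249 at 1.5-fold, 408 at 4-fold, 2599 at 1 CPM, 335 at 20 CPM and 1304 to 2411 with a library left out, where a diet left with 1 library overlaps less often by construction: 2169 and 2322 without control replicates 2 and 3, 2411 and 2201 without MCD replicates 1 and 3. The difference from knockout gave 71 genes (DESeq2), 1 (limma-voom), 44 (no filter), 1 (CD4+ libraries only) and 0 to 21 with a library left out (20 and 21 without γδ MCD replicates 2 and 4); it could not be fitted on the 4 wild-type libraries. A lone library was assumed to vary like the other groups. The cause of these shifts was not tested. Of the genes with the smallest p, Slamf7 passed the adjusted threshold in 4 of 24 settings (log2 fold change -2.70 to -2.14) and Cdk6 in 2 (1.31 to 1.86); Cxcr6, Il18r1 and Ccl5 passed in 0, with the same direction in all 24. Of the list medians, checkpoint (0.48 to 1.03), proliferation (-0.70 to -0.37) and hepatocyte (-4.37 to -0.17) kept their sign in all 24. Other printed medians that turned or moved by over 1.5 times without 1 library have such values beside them, but not every such value. Medians of some lists are not printed. Groups of 2 limit every value here, and scarce transcripts sit near the floor of 3 counts.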
